A study of Mus musculus with 9 samples.

Results

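Canonical p53 target genes are those that wild-type p53 switches on after DNA damage and other stress, and 33 of them, taken by name from a total of 21887 protein-coding genes, were followed through ATAC-seq peak lists of 3 mouse osteosarcoma lines. ATAC-seq marks open chromatin through the cuts that the Tn5 transposase makes in accessible DNA. The R172H line had genotype p53R172H/-, with 1 allele carrying the R172H substitution and the other allele absent. The R245W line had genotype p53R245W/-, likewise with a single substituted allele, and the null line had genotype p53-/-. All lines were derived from primary murine osteosarcomas, bone-forming tumours, and all were grown in DMEM with fetal bovine serum and antibiotics. None of them carried wild-type p53. Each genotype was represented by 1 line with 3 libraries, so genotype and line cannot be told apart. No label states that the 3 libraries of a line are from different cultures, so all p-values below measure only the spread between libraries, which may be technical.

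p53 is a transcription factor that binds as a tetramer to pairs of a degenerate half-site, and it acts on the cell cycle, cell death, DNA repair and metabolism through the genes followed here. Mdm2 and Mdm4 encode the proteins that hold p53 in check, so their genes close a feedback loop. The substitutions R172H and R245W lie in the DNA-binding domain and correspond to hotspot mutations of human tumours. They are known for the loss of sequence-specific activation of these targets.

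Values were taken from each member in 2 ways. Peaks were collected in a window of the gene span with 20 kb on either side, and the strongest peak was found within 1000 bp of either gene end. The strength of a peak is given as its percentile of the authors' -log10 q among all peaks of its own library, so 100 is the strongest peak of a list. A percentile ranks a peak within a library and is not an amount of open chromatin. Read depth is unknown. The lists held 73366 ± 854 peaks in the R172H line, 77202 ± 2075 in the R245W line and 65638 ± 389 in the null line (SD, n = 3 libraries each). The windows of the members held 161 ± 5.69 of these peaks in the R172H line, 184 ± 4.73 in the R245W line and 171.7 ± 2.08 in the null line. Merging the 9 lists gave 124230 regions, and where a library had several peaks in a region the strongest one stands for it. For the 36473 regions called in all 9 libraries, ranks of -log10 q were turned into normal scores and compared between lines with limma over all of these regions. A region is said to rank higher or lower where the Benjamini-Hochberg adjusted p was under 0.05, and the size is given in points, the difference between lines in mean percentile rank among the 36473 regions. An end of Trp53 itself had a peak in all 9 libraries, which checks no label because the labels do not say which part of the gene the null alleles lack. Of 8 osteoblast markers, 6 had an end peak in all 9 libraries, while Bglap and Ibsp had none in any. Of the other markers looked for, the pan-leukocyte gene Ptprc, the endothelial genes Pecam1 and Cdh5 and the epithelial gene Cdh1 had no end peak in any library. Cd68 and Krt8 had one in all 9 libraries, Csf1r in the 3 R245W libraries, and Epcam in 5 libraries. Markers were checked at gene ends only, so a start peak away from the ends would not be counted.

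Upstream sequence was available for 25 of the 33 members, as 34 windows from 250 bases before to 50 bases after a listed RefSeq start. The 8 members not listed are Pmaip1, Zmat3, Trp53inp1, Perp, Tnfrsf10b, Ddb2, Xpc and Rrm2b. A p53 half-site, searched by its consensus of 10 bases on both strands, occurred in 11 of the 34 windows (32.4%), against 7.38% of 21255 windows of all genes. The members with one were Aen, Bax, Ccng1, Cdkn1a, Ei24, Gadd45a, Gtse1, Mdm2, Polk and Sesn1. The 2 Aen windows hold the same site, which is counted under both, and the members were chosen as known p53 targets. Of the other promoter motifs, CCAAT was in 44.1% of member windows against 38.2%, GGGCGG in 70.6% against 46.2%, and TTTGAA, the CHR element of genes repressed in the cell cycle, in 11.8% against 16.0%, on either strand. A match is a description of letters and not a bound site. The 250 bases before the start of 4 members are shown because their half-sites differ in whether a peak lies over them. They are given 5′ to 3′ on the strand of the gene, from RefSeq on GRCm38.p6, with half-sites in capitals. The 2 Cdkn1a windows lie before the upstream start (chr17:29090729-29090978, + strand) and before the inner start (chr17:29093519-29093768, + strand). The windows of Mdm2 (chr10:117710759-117711008), Gadd45a (chr6:67037408-67037657) and Ccng1 (chr11:40755287-40755536) are on the - strand.
Cdkn1a, upstream start: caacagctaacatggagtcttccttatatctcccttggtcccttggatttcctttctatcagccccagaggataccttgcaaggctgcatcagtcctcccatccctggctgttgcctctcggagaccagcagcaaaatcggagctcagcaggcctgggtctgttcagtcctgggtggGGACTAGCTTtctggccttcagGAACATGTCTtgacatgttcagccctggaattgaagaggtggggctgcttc
Cdkn1a, inner start: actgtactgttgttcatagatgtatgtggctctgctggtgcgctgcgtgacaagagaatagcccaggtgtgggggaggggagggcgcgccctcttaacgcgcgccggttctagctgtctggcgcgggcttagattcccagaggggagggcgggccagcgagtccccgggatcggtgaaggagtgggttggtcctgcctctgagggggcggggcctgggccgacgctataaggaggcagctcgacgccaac
Mdm2: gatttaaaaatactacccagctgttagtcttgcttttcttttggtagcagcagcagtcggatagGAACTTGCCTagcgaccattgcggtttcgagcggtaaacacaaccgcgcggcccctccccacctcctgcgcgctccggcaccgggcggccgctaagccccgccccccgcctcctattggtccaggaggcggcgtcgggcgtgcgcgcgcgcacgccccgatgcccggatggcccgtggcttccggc
Gadd45a: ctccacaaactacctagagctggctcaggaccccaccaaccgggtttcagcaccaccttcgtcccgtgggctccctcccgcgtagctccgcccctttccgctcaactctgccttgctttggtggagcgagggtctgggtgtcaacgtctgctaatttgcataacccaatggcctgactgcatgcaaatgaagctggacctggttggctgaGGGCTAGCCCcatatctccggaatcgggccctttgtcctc
Ccng1: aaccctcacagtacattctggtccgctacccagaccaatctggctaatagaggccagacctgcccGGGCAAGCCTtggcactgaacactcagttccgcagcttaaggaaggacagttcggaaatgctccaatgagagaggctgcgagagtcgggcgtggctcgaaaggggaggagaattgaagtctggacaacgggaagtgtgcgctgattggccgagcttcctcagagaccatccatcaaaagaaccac

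The windows of the members held 11 distinct half-sites, of which 8 lay under a peak in all 9 libraries and 3 under a peak in none. The matching share in the windows of all genes was not computed, so these counts show nothing particular to half-sites or to the members. The covered sites include GAACTTGCCT, 186 bases before the Mdm2 start, GGGCTAGCCC, 40 bases before the Gadd45a start, and GGGCAAGCCT, 185 bases before the Ccng1 start. Of the 3 uncovered sites, 1 lies before an inner start of Polk, the gene of a translesion DNA polymerase, and 2 lie before the upstream start of Cdkn1a. At Cdkn1a they are GGACTAGCTT with its first base at position -73 and GAACATGTCT at position -51. The second is followed directly, at position -41, by TGACATGTTC, which has 1 mismatch to the consensus, so a pair of abutting half-sites stands there. The nearest peak to the Cdkn1a half-sites was 2457 to 2545 bp away in the 9 libraries. Thus the paired half-site of Cdkn1a had no called peak over it in any line, with or without a p53 allele.

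Cdkn1a encodes p21, the cyclin-dependent kinase inhibitor that carries out much of the p53 cell cycle arrest. None of the 9 libraries had a peak at either of its gene ends. All of them had a peak over the inner start, 2790 bp into the gene, and the strongest peak of the merged region there ranked at percentiles 83.4, 83.3 and 83.9 in the R172H libraries, 87.9, 85.1 and 84.8 in the R245W libraries and 78.8, 77.2 and 79.4 in the null libraries. In R172H replicate 1 this region was split into 2 peaks, and the value of 83.4 belongs to the one from 3712 to 4995 bp. The one over the inner start, from 2415 to 3263 bp, stood at 75.2. Each peak that gave the percentiles above had its highest point 4528 to 4603 bp into the gene, past the inner start. The 75.2 therefore has no like value in the other libraries. By the strongest peak of the region, the 6 mutant libraries were above all null libraries. In such bulk libraries, more cells with a peak and a stronger peak per cell cannot be told apart. The R245W line ranked 7.24 points above the null line (limma, adjusted p = 0.0334), while the difference of 5.12 points between the R172H and null lines did not pass (adjusted p = 0.107). The R245W call was lost with ranks of fold over background, with ranks within each chromosome, and without R245W replicate 1 or any single null library. The order was the other way round at a distal region of the same gene, at position -12213 (chr17:29077940-29079592). Its percentiles were 66.1, 76.2 and 65.3 in R172H, 76.5, 82.4 and 76.1 in R245W and 84.4, 85.0 and 82.9 in null libraries. The region ranked lower in both mutant lines, with a difference of -24.55 points in R172H against null (adjusted p = 0.000413) and -14.92 points in R245W against null (adjusted p = 0.00929), and neither call held with ranks of the fold over background. A weak distal region at position -8905 was called in the R245W libraries alone, at percentiles 6.98, 9.75 and 13.4.

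Mdm2, the ubiquitin ligase that degrades p53, had a strong peak over its start in every library, at percentiles 86.6, 85.1 and 84.6 in R172H, 88.2, 89.2 and 90.8 in R245W, and 82.7, 83.9 and 84.0 in null libraries. The R245W libraries were all above the others and the R172H libraries all above the null. The difference of 6.15 points between R245W and null passed (adjusted p = 0.0413) but was kept in only 3 of 14 alternative fits. The best-known p53 response element of Mdm2 lies in its first intron, which the windows searched for half-sites do not cover. Further from the start the lines differed more. Over the other end, in a region that also holds an end of Cpm (chr10:117687191-117689260), percentiles were 49.1, 37.0 and 36.2 in R172H, 57.4, 50.4 and 57.2 in R245W, and 9.91, 14.7 and 23.7 in null libraries. Neither mutant line overlapped the null line. The region ranked 13.2 points higher in R172H than in null (adjusted p = 0.00171) and 22.39 points higher in R245W than in null (adjusted p = 0.000332). At position -7302 a distal region (chr10:117717449-117718672) was weakest in the R172H line, at 39.7, 32.8 and 37.6, against 67.8, 71.6 and 66.0 in R245W and 57.9, 58.4 and 49.1 in null libraries. Its difference was -20.67 points in R172H against null (adjusted p = 0.000204, lost with ranks of fold over background) and -29.17 points in R172H against R245W (adjusted p = 3.26e-05). Another, at position 33926 and so beyond Mdm2 and nearest to Cpm, was 35.79 points higher in R245W than in null (adjusted p = 3.96e-05). The region was also called in R172H against null, at 52.8, 56.1 and 43.6 against 36.5, 31.4 and 31.6. Neither call could be made with peaks cut to 250 bp on either side of the summit (summit windows). The R172H call was also lost with ranks of fold over background. In null replicates 1 and 2 the strongest peak had its summit at 33090 and 33061 bp, against 34342 to 34429 bp in R245W.

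**Figure D1:**
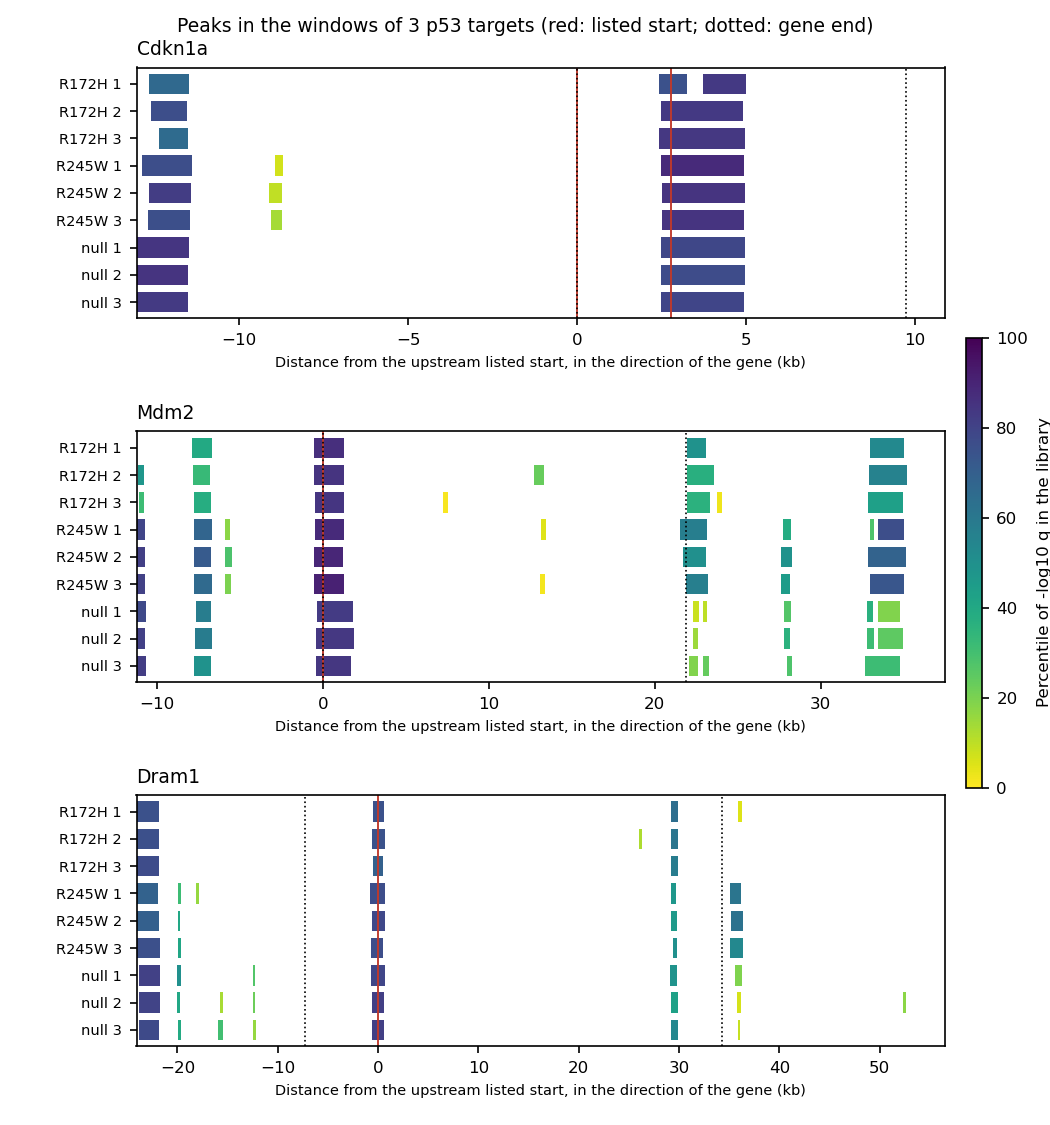
Peaks in the windows of Cdkn1a, Mdm2 and Dram1 in each of the 9 libraries, by distance in kb from the upstream listed start (for Dram1, its only listed start) in the direction of the gene, coloured by percentile of -log10 q. Red lines mark listed starts and dotted lines gene ends; Cdkn1a has no peak at its upstream start in any library, and Dram1 has a wide peak near one end in the 3 R245W libraries.

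Mdm4 is a relative of Mdm2 that blocks the activation domain of p53, and Dram1 is a lysosomal membrane protein that promotes autophagy. They were the other members with a listed start peak in every library but no end peak in some or all libraries. The inner start of Mdm4 had percentiles of 87.1, 89.1 and 90.0 in R172H, 90.7, 88.8 and 88.0 in R245W and 91.2, 90.1 and 89.6 in null libraries. These overlapped, and no pair of lines passed (adjusted p from 0.0562 to 0.815). The listed start of Dram1 was weaker in both mutant lines, at 75.1, 74.8 and 69.5 in R172H and 76.7, 78.3 and 76.4 in R245W, against 79.1, 81.3 and 81.5 in null libraries. The difference was -13.94 points in R172H against null (adjusted p = 0.00141) and -11.64 points in R245W against null (adjusted p = 0.00526), the R245W call being lost with ranks of fold over background. The far end of Dram1 had a peak within 1000 bp only in the R245W libraries, at 61.3, 62.5 and 53.3. The same region held a narrower peak farther out in R172H replicate 1, at 5.21, and in the null libraries, at 19.4, 6.37 and 8.61.

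In all, 29 of the 33 members (87.9%) had a peak at a gene end in all 9 libraries, against 55.0% of all protein-coding genes. The 4 exceptions were Cdkn1a, Mdm4, Dram1 and Perp, and the first 3 of these had a peak at a listed start in all 9 libraries. With listed starts included, 32 members had such a peak in every library. Its lowest percentile over the 9 libraries exceeded 90 in 12 members and 50 in 31 of the 32, the exception being Cyfip2. These counts were not made over all genes, so they do not set the members apart. The strongest was Rrm2b, a ribonucleotide reductase subunit that supplies DNA repair, with a lowest value of 99.7. The test could be made for 31 members. In R172H against null, 10 of these (32.3%) ranked higher and 4 (12.9%) lower. In R245W against null, 10 (32.3%) ranked higher and 6 (19.4%) lower, and in R172H against R245W, 10 (32.3%) ranked higher and 3 (9.68%) lower. Over the 12206 genes tested at gene ends, 38.8% ranked higher and 18.1% lower in R172H than in null, 30.0% and 21.4% in R245W than in null, and 36.3% and 21.9% in R172H than in R245W. For these genes the tested end was the region with the largest summed -log10 q, and listed starts were not used. A member was tested only where its strongest peak lay in 1 region in all libraries. At gene ends alone, where 28 members could be tested, 35.7% ranked higher and 10.7% lower in R172H than in null. The shares were 32.1% and 17.9% in R245W against null, and 35.7% and 10.7% in R172H against R245W. These shares were near the background for higher ranks. For lower ranks they were below it, only slightly so in R245W against null. Each lower share rests on 3 to 6 members and is not read as a trait of them, and no test of a share was made. The members' median difference at gene ends was 2.15 points in R172H against null, 0.76 in R245W against null and 2.18 in R172H against R245W. All genes had medians of 2.07, 0.84 and 1.47 points there. With listed starts included, the members' medians were 1.90, 0.65 and 0.97 points in the same order. No member had an end that was open in every library of R172H or of null and in none of another line, and among all genes this held for 3.19% in R172H against null, 1.61% in R172H against R245W, 1.27% in null against R172H and 0.544% in null against R245W. Of the calls at members, 5 of 14 in R172H against null, 2 of 16 in R245W against null and 4 of 13 in R172H against R245W held in all 14 alternative fits. Dram1 was the 1 member with an end open in R245W alone, as were 3.3% of genes against null and 2.57% against R172H.

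**Figure D2:**
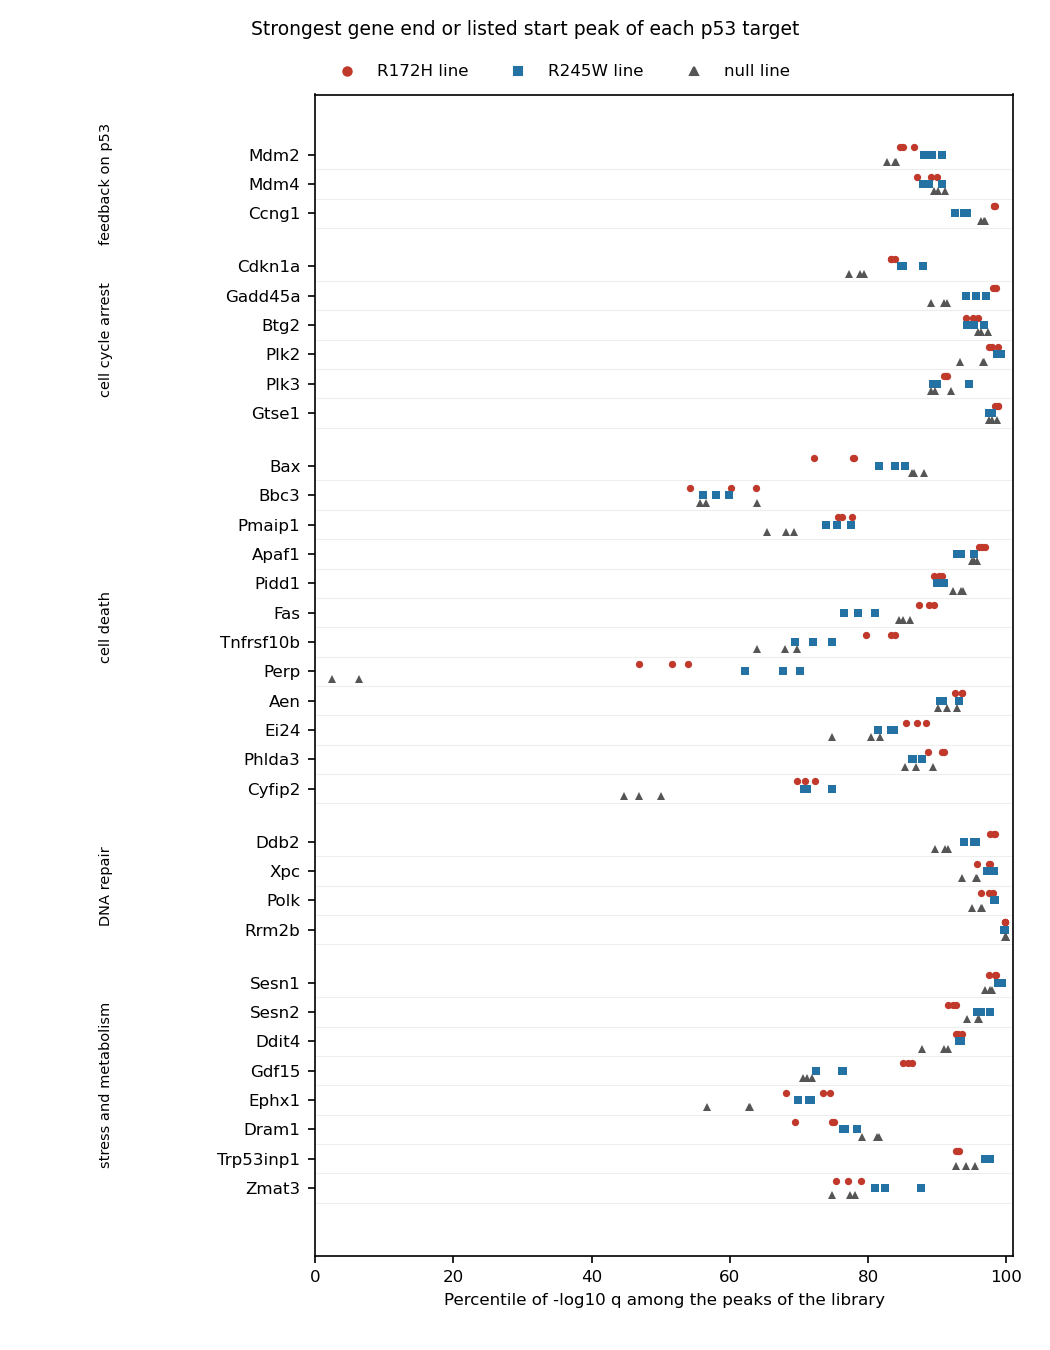
Percentile of -log10 q within the library at the strongest gene end or listed start peak of each of the 33 members, with 1 point per library and members grouped by function. Most members sit above the 80th percentile in all lines, while Perp and Cyfip2 are lower in the null line than in both mutant lines.

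Perp, a desmosomal membrane protein that is a p53 target in cell death, showed the widest gap between lines at a gene end. Its end peak (chr10:18844540-18845521) had percentiles of 54.0, 46.8 and 51.6 in R172H and 62.2, 70.2 and 67.7 in R245W libraries. In the null line it was not called in replicate 1 and stood at 6.37 and 2.44 in the others. The 3 lines did not overlap, and without a value in every library the region could not enter the fit. The rest of the Perp window went the same way. A distal region at chr10:18875985-18876781 was called in both mutant lines and in no null library, at 35.1, 18.8 and 29.1 in R172H and 67.8, 62.6 and 64.9 in R245W. Distal regions at chr10:18826755-18827249 and chr10:18863039-18863876 were called in the 3 R245W libraries and no other. No region of the Perp window was called in all 9 libraries. Perp is also a gene of stratified epithelia. Of the 3 epithelial markers, Krt8 likewise ranked higher in both mutant lines, with end percentiles of 55.1, 49.3 and 41.3 in R172H and 55.3, 58.9 and 49.7 in R245W, against 20.3, 23.6 and 23.9 in null libraries. Epcam had an end peak in the R245W libraries, at 37.3, 29.7 and 32.5, and in 2 null libraries, at 10.8 and 7.83, but in no R172H library, and Cdh1 had none. The part of such cells in the Perp difference was not tested.

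Among the 12 members of cell death, 10 could be tested. In R172H against null, Pmaip1, Tnfrsf10b, Ei24 and Cyfip2 ranked higher, Pidd1 ranked lower and 5 did not pass, where 38.8% of all genes ranked higher and 18.1% lower. Pidd1 is counted at the end it shares with Rplp2. Its own inner listed start, given below, ranked higher in R172H than in null. In R245W against null, only Cyfip2 ranked higher, Fas, Apaf1 and Pidd1 ranked lower and 6 did not pass, against 30.0% and 21.4% of all genes. Between the mutants, Phlda3, Fas, Tnfrsf10b, Apaf1 and Ei24 ranked higher in R172H than in R245W and none ranked lower, against 36.3% and 21.9% of all genes. Ei24, an endoplasmic reticulum protein with roles in death and autophagy, stood at 85.4, 88.4 and 87.1 in R172H, 81.5, 83.7 and 83.3 in R245W and 80.5, 74.8 and 81.7 in null libraries. The R172H line was above both others, and its calls against null (adjusted p = 0.0125) and R245W (adjusted p = 0.0163) were lost with ranks of fold over background and with ranks within chromosomes, the call against R245W also without R172H replicate 2 or R245W replicate 1. Aen, a nuclease of apoptosis, stood at 93.6, 92.5 and 93.6 in R172H, 93.2, 90.4 and 90.9 in R245W and 92.9, 90.2 and 91.4 in null libraries, and no pair passed.

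Cyfip2, a partner of the actin-regulating WAVE complex, had the largest difference among the gene ends tested. Its end peak had percentiles of 69.7, 70.9 and 72.3 in R172H and 71.2, 70.7 and 74.8 in R245W, against 46.9, 50 and 44.7 in null libraries. The mutant lines overlapped each other and both were clear of the null line. The region ranked 24.77 points higher in R172H than in null (adjusted p = 3.61e-05) and 22.53 points higher in R245W than in null (adjusted p = 0.000115), and 2.24 points separated the mutants (adjusted p = 0.542). Both calls against null held in all 14 alternative fits. Inside the gene, distal regions at chr11:46225054-46226121 and chr11:46245836-46246584 were called in R245W alone, at percentiles of 54.0 to 60.8.

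Tnfrsf10b and Fas encode death receptors of the TRAIL and Fas ligands. The Tnfrsf10b end stood at 83.3, 79.8 and 83.9 in R172H, against 69.4, 74.8 and 72.0 in R245W and 68.0, 64.0 and 69.7 in null libraries. The R172H line was above both others, by 18.6 points over null (adjusted p = 0.000609) and 19.3 points over R245W (adjusted p = 0.000517), in all 14 alternative fits. The Fas end stood at 87.3, 89.6 and 88.8 in R172H, 78.5, 81.0 and 76.6 in R245W and 85.0, 86.1 and 84.5 in null libraries. Here the R245W line was the lowest, with -16.2 points in R245W against null (adjusted p = 0.000392) and 19.7 points in R172H against R245W (adjusted p = 5.91e-05), again in all 14 fits. Fas lies on chromosome 19, where the median region ranked 4.31 points higher in R245W than in null and 3.45 points higher in R172H than in R245W.

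The BH3-only genes and Bax act at the mitochondrion. Bbc3, which encodes the BH3-only protein PUMA, had one of the weaker starts, at 54.2, 60.1 and 63.9 in R172H, 56.1, 58.0 and 59.9 in R245W and 64.0, 55.7 and 56.5 in null libraries. All lines overlapped and no pair passed (adjusted p from 0.0636 to 0.547). Pmaip1, which encodes the BH3-only protein NOXA, stood at 76.3, 75.7 and 77.6 in R172H, 77.6, 75.5 and 73.9 in R245W and 69.2, 68.1 and 65.3 in null libraries. Both mutant lines were above null, by 9.22 points in R172H (adjusted p = 0.0135, lost without null replicate 3) and by 4.41 points in R245W, which did not pass (adjusted p = 0.2). Pmaip1 lies on chromosome 18, where the median difference over regions was -11.69 points in R245W against null. Bax, the pore-forming effector of the mitochondrial pathway, has 2 regions at its ends. Its own start (chr7:45466241-45467324) stood at 77.7, 72.1 and 78.0 in R172H, 69.3, 75.5 and 72.4 in R245W and 70.6, 76.1 and 72.7 in null libraries, which all overlapped. It ranked 8.91 points higher in R172H than in R245W (adjusted p = 0.0489), a call kept in 4 of 14 alternative fits. The region on the side of Ftl1 (chr7:45458880-45461425) was stronger, at 89.6, 90.6 and 87.9 in R172H, 81.6, 85.3 and 83.8 in R245W and 86.7, 86.4 and 88.1 in null libraries. The R245W libraries were below all others there. The difference was -10.57 points in R245W against null (adjusted p = 0.00474), lost with ranks within chromosomes, and 12.44 points in R172H against R245W (adjusted p = 0.00121), lost with ranks of fold over background, and each was kept in the other 13 of 14 fits. In R172H its peak did not come within 1000 bp of the Bax end, so the strongest end peak of Bax comes from different regions in different lines and was not tested as 1 site.

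Apaf1, the core of the apoptosome, shares its start region with Ikbip. It stood at 97.0, 96.0 and 96.4 in R172H, 95.4, 92.9 and 93.4 in R245W and 95.0, 95.4 and 95.7 in null libraries. The R172H line ranked 5.73 points above R245W (adjusted p = 0.00586, lost with ranks of fold over background), and the difference of R245W from null was -4.56 points (adjusted p = 0.0297, kept in 8 of 14 alternative fits). Pidd1, a death-domain protein of the PIDDosome, shares its strongest end with the ribosomal gene Rplp2. That end was lower in both mutants, at 89.5, 90.3 and 90.7 in R172H and 90.0, 90.0 and 91.0 in R245W, against 93.5, 92.2 and 93.7 in null libraries. At the inner listed start of Pidd1 itself (chr7:141443211-141444270) the order differed, with 75.2, 80.0 and 75.9 in R172H, 64.9, 65.2 and 63.6 in R245W and 64.1, 63.8 and 61.1 in null libraries. That region ranked 15.6 points higher in R172H than in null (adjusted p = 0.000647) and 21.5 points higher in R172H than in R245W (adjusted p = 7.9e-05).

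Of the 6 members of cell cycle arrest, Gadd45a and Plk2 ranked higher in R172H than in null and Btg2 lower, and Cdkn1a, Gadd45a and Plk2 ranked higher in R245W than in null with none lower. Over all genes 38.8% ranked higher and 18.1% lower in R172H than in null, and 30.0% and 21.4% in R245W than in null. Gadd45a, which encodes a stress sensor that acts on the cycle and on repair, had one of the strongest and most graded ends. It stood at 98.5, 98.3 and 98.1 in R172H, 97.0, 95.6 and 94.2 in R245W and 91.0, 89.1 and 91.4 in null libraries. The 3 lines did not overlap, and the half-site shown above lies under this peak. It ranked 13.3 points higher in R172H than in null (adjusted p = 2.59e-05), 7.42 points higher in R245W than in null (adjusted p = 0.00803) and 5.87 points higher in R172H than in R245W (adjusted p = 0.00125). The median region of chromosome 6 also ranked higher, by 5.91 points in R172H and 6.63 points in R245W over null. The R245W call against null was lost with ranks within the chromosome and with ranks of fold over background. Both R172H calls held in all 14 alternative fits. Btg2, an anti-proliferative cofactor of mRNA deadenylation, stood at 95.9, 94.2 and 95.2 in R172H, 95.3, 96.7 and 94.4 in R245W and 95.9, 96.3 and 97.4 in null libraries. Its lower rank in R172H than in null, a difference of -3.56 points (adjusted p = 0.0425), was kept in 7 of 14 alternative fits.

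Plk2, a polo-like kinase, had one of the strongest starts, at 97.9, 98.7 and 97.5 in R172H, 99.0, 98.7 and 99.2 in R245W and 96.6, 96.7 and 93.4 in null libraries. Both mutant lines were above the null line, by 4.02 points in R172H (adjusted p = 0.0276) and 5.62 points in R245W (adjusted p = 0.00253). Both calls were lost with ranks of fold over background and with ranks within chromosomes, and the R172H call also without R172H replicate 2 or null replicate 3. Plk3, another polo-like kinase, and Gtse1, a microtubule-binding regulator of p53 in G2, stood at 89.1 to 94.5 and 97.5 to 98.8 over the 9 libraries and did not pass against null in either mutant line.

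Ccng1, which encodes cyclin G1 and counts here with the feedback on p53, separated the lines at a very high rank. Its start stood at 98.2, 98.3 and 98.3 in R172H, 94.3, 93.9 and 92.6 in R245W and 96.9, 96.4 and 96.8 in null libraries. No lines overlapped. It ranked 9.99 points higher in R172H than in R245W (adjusted p = 8.47e-06) and differed by -7.59 points in R245W against null (adjusted p = 0.000242), and these calls were lost only with ranks of fold over background. The median region of chromosome 11 ranked 4.70 points higher in R172H than in R245W.

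All 4 members of DNA repair passed in R245W against null, 3 of them higher and 1, Rrm2b, lower by -0.38 points, where 30.0% of all genes ranked higher and 21.4% lower. All 4 of these calls were lost with ranks of fold over background and with ranks within chromosomes. Polk stood at 96.4, 98.1 and 97.6 in R172H, 98.4, 98.2 and 98.2 in R245W and 96.5, 95.1 and 96.4 in null libraries, in a region shared with Cert1. Xpc, a damage-recognition protein of nucleotide excision repair, stood at 97.5, 95.7 and 97.7 in R172H, 98.2, 97.9 and 97.2 in R245W and 95.6, 93.6 and 95.7 in null libraries, in a region shared with Lsm3. In both genes the R245W libraries were above all null libraries, though the call was lost for Polk also without null replicate 2, and for Xpc without R245W replicate 1, R245W replicate 2 or null replicate 2. Ddb2 passed in every pair. Ddb2, a damage-recognition subunit of nucleotide excision repair, stood at 98.2, 97.7 and 98.4 in R172H, 93.9, 95.6 and 95.3 in R245W and 89.6, 91.1 and 91.5 in null libraries. The 3 lines did not overlap, in the same order as at Gadd45a. It ranked 12.4 points higher in R172H than in null (adjusted p = 1.15e-05) and 5.54 points higher in R245W than in null (adjusted p = 0.0169). The R172H call was lost with ranks of fold over background, and the R245W call with those, with ranks within chromosomes, and without R245W replicate 2, R245W replicate 3 or null replicate 1. The median region of chromosome 2 ranked 7.12 points higher in R172H than in null. The Ddb2 window also held a distal region called in R245W alone, at chr2:91248261-91248820, with percentiles of 57.8, 55.2 and 48.3.

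Among the 8 members of stress and metabolism, Gdf15 and Ephx1 ranked higher and Sesn2 and Dram1 lower in R172H than in null, while Sesn1 and Trp53inp1 ranked higher and Dram1 lower in R245W than in null. Over all genes 38.8% ranked higher and 18.1% lower in R172H than in null, and 30.0% and 21.4% in R245W than in null. Zmat3, an RNA-binding zinc finger protein, stood at 77.1, 79.0 and 75.3 in R172H, 81.0, 82.5 and 87.7 in R245W and 77.3, 74.8 and 78.2 in null libraries. The R245W libraries were above all others, but no pair passed (adjusted p from 0.0747 to 0.607). Gdf15, a secreted stress hormone, stood at 86.4, 85.1 and 85.8 in R172H, against 72.5, 76.3 and 76.3 in R245W and 71.9, 70.5 and 71.1 in null libraries. The R172H line was clear of both others, by 19.2 points over null (adjusted p = 8.01e-05) and 20.6 points over R245W (adjusted p = 5.72e-05). On chromosome 8, where it lies, the median region ranked 7.48 points higher in R172H than in null, and both calls held with ranks within the chromosome. Each was kept in 13 of 14 alternative fits, and neither could be made with summit windows. Sesn2, a leucine sensor that restrains mTORC1, stood at 92.2, 92.8 and 91.5 in R172H, 97.7, 95.8 and 96.3 in R245W and 96.0, 94.3 and 96.0 in null libraries. It was lowest in R172H, at -7.25 points from null (adjusted p = 0.00554), but the call was lost with ranks within chromosomes, and with ranks of fold over background it ranked higher in R172H. Its relative Sesn1 stood at 98.4, 97.5 and 98.5 in R172H, 99.3, 98.8 and 99.3 in R245W and 97.6, 97.9 and 96.9 in null libraries, in a region shared with Cep57l1. Trp53inp1, a nuclear body protein that aids p53 in death and autophagy, stood at 93.1, 92.8 and 93.2 in R172H, 96.9, 97.6 and 97.0 in R245W and 92.7, 94.2 and 95.4 in null libraries. The R245W line was above both others there, by 4.49 points over null (adjusted p = 0.00894), and R172H differed from it by -7.82 points (adjusted p = 0.000451), calls lost with ranks of fold over background for the first and with ranks within chromosomes for the other. Ephx1, an epoxide hydrolase that detoxifies xenobiotics, stood at 74.6, 73.5 and 68.1 in R172H, 71.5, 69.9 and 71.7 in R245W and 56.6, 62.7 and 63.0 in null libraries. Both mutant lines were clear of null, and only the 11.2 points of R172H passed (adjusted p = 0.0134), a call lost with ranks of fold over background and without null replicate 1. Ddit4, which encodes the mTORC1 inhibitor REDD1, did not pass in any pair at its start, at 92.8, 93.1 and 93.6 in R172H, 93.2, 93.5 and 93.1 in R245W and 91.6, 87.8 and 91.0 in null libraries (adjusted p from 0.0995 to 0.737).

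The windows of the members held 248 regions, from 3 to 14 per member, and no region lay in more than 1 window. Of these, 43 lay at an end of the member, 5 at another of its listed starts, 33 at the end or start of another gene, and 167 were distal to all of them. A region was called in all 9 libraries in 113 cases (45.6%), against 32.4% in the windows of all protein-coding genes. Among distal regions the shares called in all 9 libraries were 30.5% for members and 23.3% for all genes. Of the 113 regions, 38 (33.6%) ranked higher and 29 (25.7%) lower in R172H than in null, against 35.0% and 28.9% of all 36473 regions. In R245W against null, 22 (19.5%) ranked higher and 36 (31.9%) lower, against 26.8% and 26.9%. In R172H against R245W, 45 (39.8%) ranked higher and 22 (19.5%) lower, against 34.6% and 29.4%. With a difference of at least 10 points as well, 25 regions ranked higher and 19 lower in R172H than in null, against 25.7% and 22.6% of all regions, 7 and 25 in R245W than in null, against 18.2% and 18.7%, and 30 and 14 in R172H than in R245W, against 24.6% and 22.3%. Of the distal regions of the members, 6 of 51 (11.8%) ranked higher and 20 (39.2%) lower in R245W than in null, where 24.8% and 30.0% of all distal regions did. In R172H against R245W, 19 ranked higher and 13 lower, against 33.8% and 33.4%. In R172H against null, 16 (31.4%) ranked higher and 18 (35.3%) lower, near the background of 32.4% and 34.7%. Whether the members' shares differ from the background was not tested.

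**Figure D3:**
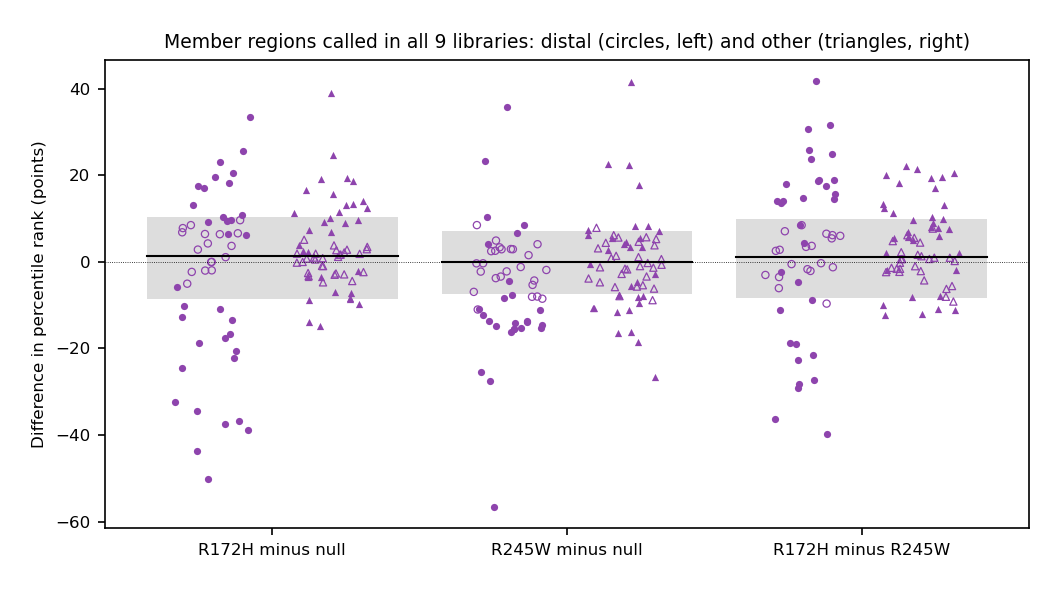
Difference in mean percentile rank, in points, for the 113 member regions called in all 9 libraries, for each pair of lines. Circles on the left of each pair are the 51 distal regions and triangles on the right the 62 others, filled where the adjusted p was under 0.05; the grey band and black line are the quartiles and median of all 36473 regions. Distal regions reach differences of 33.4 points higher and -50.1 points in R172H against null, a wider range downwards than the other regions.

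The distal regions named next were chosen after their values were seen, as those with the largest differences. Inside Sesn1, at position 12084 from its upstream listed start, a region (chr10:41821988-41823328) stood at 44.8, 54.0 and 47.4 in R172H, 77.8, 80.0 and 81.9 in R245W and 85.9, 86.4 and 82.6 in null libraries. The R172H libraries were far below the rest. The difference was -50.11 points in R172H against null (adjusted p = 9.28e-07) and -13.78 points in R245W against null (adjusted p = 0.00547). A further region of the Sesn1 window (chr10:41893547-41894630) was graded the same way, at -38.84 points in R172H and -27.62 points in R245W against null. Close to the Sesn2 start, at position -3591, a region (chr4:132513588-132514507) stood at 58.4, 53.2 and 50.4 in R172H, 34.8, 38.7 and 37.1 in R245W and 82.1, 79.5 and 79.7 in null libraries. Here R245W was the lowest and no lines overlapped, with -37.54 points in R172H against null (adjusted p = 3.7e-06) and -56.58 points in R245W against null (adjusted p = 4.64e-07). These calls held in all 14 alternative fits. The neighbouring region (chr4:132514866-132516012), at 81.1 to 90.2 in all 9 libraries, ranked 6.39 points higher in R172H than in null (adjusted p = 0.0412), a call kept in 7 of the 14.

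Phlda3, an inhibitor of AKT signalling, had distal regions that moved in opposite directions within 1 window. At position -10306 from its start a region (chr1:135755112-135756447) stood at 34.1, 42.0 and 31.7 in R172H, 66.8, 67.5 and 68.0 in R245W and 72.0, 74.1 and 74.5 in null libraries. At position 13039 another (chr1:135778547-135779702), nearest to Tnni1, stood at 64.3, 72.6 and 68.7 in R172H, 28.5, 29.7 and 24.2 in R245W and 32.1, 31.5 and 38.5 in null libraries. The first was -43.76 points in R172H against null (adjusted p = 6.47e-07) and the second 33.4 points (adjusted p = 6.63e-06), while the Phlda3 start between them did not pass in that pair (adjusted p = 0.273). In Polk, a region inside the gene (chr13:96510209-96511541) was lowest in R245W, at 69.2, 68.4 and 70.7, against 80.7, 82.6 and 82.8 in null and 88.8, 87.1 and 86.2 in R172H libraries. It was -25.38 points in R245W against null (adjusted p = 3.86e-05). Distal regions that were strong in every library, above the 75th percentile, numbered 7 and lay in the windows of Bbc3, Sesn2, Tnfrsf10b, Btg2 and Mdm4. The strongest, nearest to Rhobtb2 in the Tnfrsf10b window (chr14:69804097-69806133), stood at 92.2 to 95.0.

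Regions called in all 3 libraries of a line and in none of another numbered 64 over the windows, in 28 of the 33 members. The matching totals were not made over the windows of all genes, so they do not set the members apart. Between R172H and null, R172H alone had 16 regions (6.45%) and null alone 26 (10.5%), against 12.7% and 9.8% of regions in the windows of all genes. Between R245W and null, R245W alone had 22 (8.87%) and null alone 7 (2.82%), against 8.86% and 3.8%. Between the mutants, R172H alone had 13 (5.24%) and R245W alone 31 (12.5%), against 9.96% and 12.6%. Among the 167 distal regions of the members, R172H alone had 13 (7.78%) and null alone 23 (13.8%), against 14.2% and 11.4% of distal regions near all genes. R245W alone had 18 (10.8%) and null alone 6 (3.59%), against 9.45% and 4.48%. R172H alone had 11 (6.59%) and R245W alone 27 (16.2%) when the mutants were compared, against 11.6% and 14.2%. The shares called in R172H alone were thus below those in the windows of all genes against both other lines, and the others were near them or, for null against R245W, lower. No test was made of these shares, and for a single region, 3 libraries set against 3 allow an exact permutation p of 0.1 at the least. No region of the 248 was called in all R172H and null libraries and in no R245W library, a pattern that held for 0.814% of regions in the windows of all genes. The opposite pattern, called in R245W and null and missing from R172H, held for 15 regions (6.05%, against 5.92%).

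**Figure D4:**
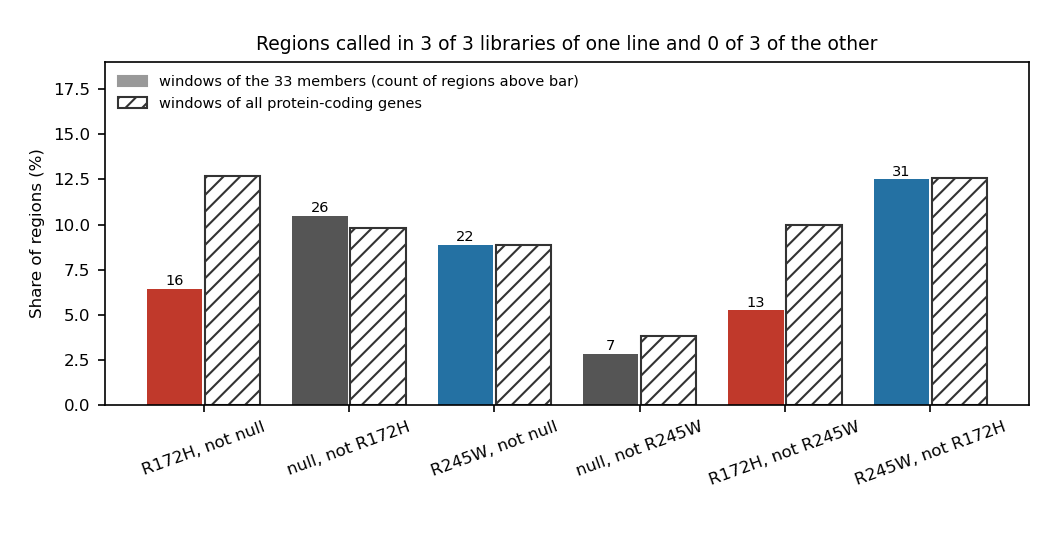
Share of regions, in percent, called in all 3 libraries of the first line and in none of the second, for the windows of the 33 members (filled bars, number of regions above) and of all protein-coding genes (hatched bars). The filled bars for R172H against null and R172H against R245W, at 6.45% and 5.24%, are the ones that stand farthest below their hatched neighbours.

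These regions were mostly of low rank. Taking the lowest percentile within the line, the median was 17.8 over the 16 regions of R172H against null and 35.7 over the 26 of null against R172H, and it passed 50 in 4 and 7 regions. In the window of Ddit4, 3 distal regions that both other lines had were missing from R172H. The strongest (chr10:59932426-59933232) stood at 62.9, 56.6 and 54.2 in R245W and 66.0, 71.0 and 71.5 in null libraries and was not called in R172H. A Ddit4 region called in all 9 libraries (chr10:59942771-59944093) was also low in R172H, at 32.9, 32.7 and 26.8, against 71.8, 74.4 and 73.0 in R245W and 65.3, 64.5 and 66.8 in null libraries. That difference was -36.77 points in R172H against null (adjusted p = 4.5e-07). Of the other distal Ddit4 regions, chr10:59934080-59934694 was called in R172H replicate 2 alone of its line, at 8.99, against 36.0, 31.1 and 30.1 in R245W and 53.2, 54.6 and 62.2 in null libraries. The last, chr10:59963960-59966047, stood at 3.33, 12.99 and 0.673 in R172H, 14.2, 22.2 and 24.4 in R245W and 37.8, 43.3 and 37.4 in null libraries. It was low in both mutant lines, with -17.58 points in R172H against null (adjusted p = 9.82e-05) and -15.18 points in R245W against null (adjusted p = 0.00644), and neither call could be made with summit windows or at a -log10 q of 5 or more. All 6 distal regions of Ddit4 were thus weaker in R172H than in null or missing there, while its start did not pass the test. Btg2 showed the opposite, with 3 distal regions called in R172H and in no other library, the strongest (chr1:134062915-134064003) at 65.9, 67.2 and 61.6. A distal Btg2 region present everywhere (chr1:134092498-134094026) was nonetheless lower in R172H, at 77.2, 80.0 and 81.4, against 90.4, 92.8 and 90.4 in R245W and 91.6, 89.5 and 93.4 in null libraries (adjusted p = 7.21e-05 against null).

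Apaf1 had the most regions called in one line and missing from another, 7 of the 14 in its window, of which 5 were missing from R172H and present in null. Cyfip2 and Pmaip1 followed with 4 each. In the Pmaip1 window a distal region (chr18:66475263-66476161) was called in R172H alone at 65.6, 63.8 and 62.1, and another (chr18:66485203-66485896) was missing from R172H, weak in R245W at 16.6, 20.3 and 20.5 and stronger in null libraries at 51.6, 53.7 and 54.5. Near Gadd45a a distal region at position -3841 (chr6:67040882-67041615) was missing from R172H, the line in which the Gadd45a start was strongest, and stood at 48.3, 51.8 and 41.5 in R245W and 69.6, 69.7 and 71.4 in null libraries. An Mdm4 distal region nearest to Pik3c2b (chr1:133050081-133050461) was called in R245W alone at 59.9, 62.5 and 57.7. In Polk a region inside the gene (chr13:96533588-96534591) was strong in R245W at 84.4, 82.6 and 81.7, middling in null libraries at 47.1, 50.7 and 36.0, and called in R172H replicate 1 only, at 0.64. The 5 members without any region called in one line and missing from another were Ccng1, Rrm2b, Ei24, Ephx1 and Gtse1.

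**Figure D5:**
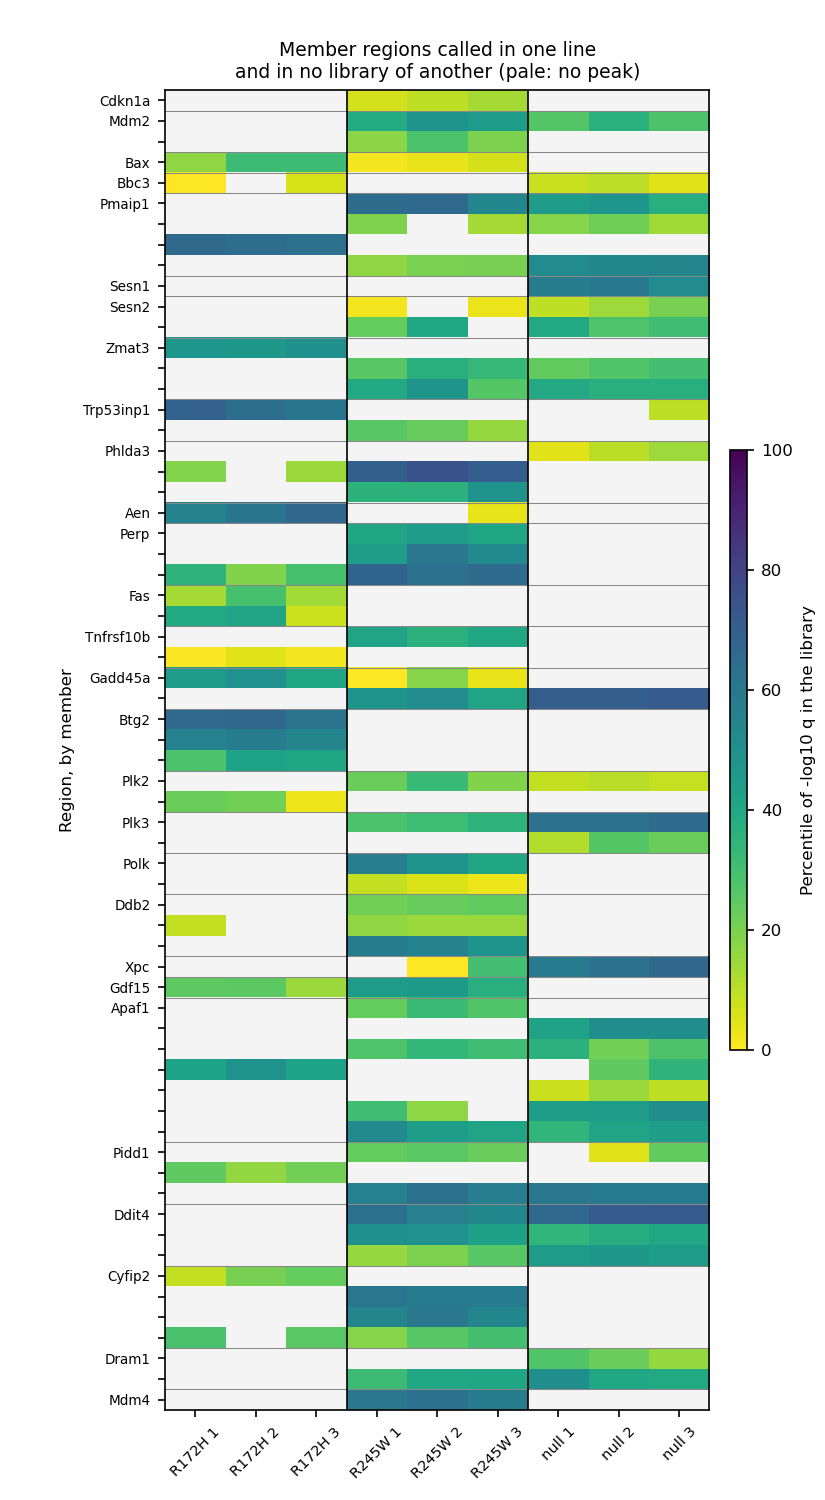
Percentile of -log10 q in each of the 9 libraries for the 64 member regions called in all libraries of a line and in none of another, grouped by member, with pale cells where no peak was called. The 3 Ddit4 rows are empty in R172H and the 3 Btg2 rows are empty outside R172H.

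Other lists of the pathway were read in the same way, at gene ends only. A start peak away from the ends, as at Cdkn1a, would thus not be counted. Over all genes, 55.0% had an end peak in all 9 libraries, and of those tested 38.8% ranked higher and 18.1% lower in R172H than in null, 30.0% and 21.4% in R245W than in null, and 36.3% and 21.9% in R172H than in R245W. Of 18 upstream regulators and cofactors of p53, 16 had an end peak in all 9 libraries, and Usp7 and Dyrk2 had none. In R172H against null, 4 of the 16 ranked higher and 2 lower, with a median of 1.07 points, and in R245W against null 4 ranked higher and 5 lower, with a median of -1.95 points. Between the mutants, 6 ranked higher and 3 lower in R172H than in R245W. The largest difference was at Trp53bp1, the gene of the double-strand break protein 53BP1, at 82.7, 83.9 and 83.9 in R172H, 60.4, 59.3 and 54.2 in R245W and 60.4, 46.0 and 50.4 in null libraries (37.98 points in R172H against null, adjusted p = 2.66e-05). Of 21 other reported p53 targets in the table, 18 had an end peak in all 9 libraries, and the exceptions were Ak1, Casp1 and Steap3. The 18 tested for rank are not the same set. They include Casp1, which ranked 16.4 points higher in R172H than in null, and leave out Trp73, which had no value in the fit. The Trp73 end stood at 41.3, 42.0 and 47.3 in R172H, 7.53, 17.2 and 6.49 in R245W and 6.30, 8.44 and 14.4 in null libraries. In R172H against null, 8 of the 18 tested ranked higher and 3 lower (median 3.33 points), and in R245W against null 6 ranked higher and 7 lower (median -0.22 points). Between the mutants, 8 were higher and 4 lower in R172H than in R245W. Eda2r, a death-domain receptor gene on the X chromosome, ranked 27.86 points higher in R245W than in null (adjusted p = 1.37e-05), at 71.6, 72.5 and 67.5, against 35.1, 39.1 and 38.1 in R172H and 40.5, 36.3 and 40.2 in null libraries. All 12 cell cycle genes that p53 represses through p21 and the DREAM complex had an end peak in all 9 libraries, with 4 higher and 3 lower in R172H than in null, and 1 higher and 2 lower in R245W than in null, and 5 higher and 1 lower in R172H than in R245W.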

How the data were processed

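The authors deposited 1 peak list per library, and per the submitters' processing notes the tools were MACS2 2.1.0, Bowtie 1.1.2, Trimmomatic 0.33, deepTools and bcl2fastq 2.17, with build GRCm38. The deposited lists hold -log10 q values, a fold over background and a signal score for each peak, called per library, with a lowest -log10 q of 1.30; read counts are not used here. Percentiles of -log10 q were computed within each library with Python 3.11.15, numpy 2.4.6, pandas 2.3.3 and scipy 1.17.1, and figures were drawn with matplotlib 3.10.9. Lists were merged at an overlap of 1 bp. Normal scores of ranks among the 36473 regions called in all 9 libraries were compared with limma 3.58.1 in R 4.3.3, with Benjamini-Hochberg adjustment over all of them, an adjusted p under 0.05 counting as a call. A rank fit shows relative strength within a library and not a global gain or loss. On simulated data for R172H against null over the 36473 regions, shifts of 1.0 normal score were recovered in 91 of 100 regions and shifts of 0.5 in 46 of 100. That simulation left 36273 regions unshifted, whereas in the data 35.0% of regions ranked higher and 28.9% lower in R172H than in null. Its shares therefore do not measure how sensitive the reported fit was. The members and gene lists were chosen with earlier results of these data known. All 33 members are accounted for. Values per library were set to be given for Cdkn1a, Mdm2, Bax, Bbc3 and Pmaip1, for members lacking an end peak in some library, for the 6 with the most regions called in one line alone (ties in alphabetical order), and for the 3 with the largest percentile difference per pair and direction among those past the rank fit. Other members and distal regions with values per library were chosen after their values were seen. Alternatives were other windows, thresholds, ranks of fold, ranks within chromosomes and libraries left out.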

Additional observations from a re-analysis of the deposited data

How the results depend on the processing

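Counts over the member windows followed the window and the rule. With 5 kb flanks, regions called in one line alone numbered 3 in R172H and 8 in null, 7 in R245W and 4 in null, and 4 in R172H and 8 in R245W for the 3 pairs, and regions ranked higher and lower numbered 18 and 14 in R172H against null, 14 and 19 in R245W against null, and 25 and 9 in R172H against R245W. With 50 kb flanks the counts called alone were 37 and 49, 36 and 19, and 29 and 50, and the ranked counts 61 and 50, 40 and 59, and 74 and 37. With only regions whose nearest gene end is the member's, the counts called alone were 10 and 13, 12 and 2, and 8 and 17. Regions called in null alone against R245W numbered 11 with calls in at least 2 of 3 libraries, and 11 with lists of equal length. With a difference of at least 10 points required, 25 ranked higher and 19 lower in R172H than in null, 7 higher in R245W than in null and 14 lower in R172H than in R245W. With ranks of fold over background, 11 ranked higher in R245W than in null. That setting kept 102 of the 192 calls on member regions, 82 were not called and 8 were called the other way. Ranks within chromosomes kept 142, and leaving out a library lost 14 to 20. The percentile difference at the strongest end changed sign with the fold over background at Apaf1 (5.62) and Ddb2 (-0.70) in R245W against null, at Sesn2 (13.43) in R172H against null and at Sesn1 (8.41) in R172H against R245W, and with percentiles within chromosomes at Sesn2 (0.46) in R172H against null. The cause was not tested. Leaving out 1 library gave 16 to 19 and 26 to 30, 22 to 25 and 7 to 10, and 13 to 15 and 31 to 36 regions called alone, and 32 to 38 and 27 to 30, 17 to 22 and 32 to 38, and 41 to 46 and 19 to 24 ranked higher and lower. Read depth is unknown and limits the weakest calls.

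Same-numbered libraries did not deviate together (correlations from -0.0138 to 0.0153), so the numbers do not pair them. With the replicate number as a block, 37 regions ranked higher and 28 lower in R172H than in null, 22 and 36 in R245W than in null, and 47 and 23 in R172H than in R245W, and 185 of the 192 calls were kept.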
